A study of Mus musculus with 5 samples.

Results

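The microtubule genes examined here were 45 genes of tubulins and of proteins that bind microtubules or free tubulin, chosen by function and matched by gene symbol to the probes of whole mouse genome arrays. All 45 had at least 1 probe, 86 probes in all, and all 45 were tested, of 28035 genes and unnamed features tested in the series. Each of the 5 two-colour arrays set RNA of pups of cocaine-treated dams against RNA of pups of saline-control dams. Timed pregnant CD1 dams had received 20 mg/kg cocaine hydrochloride or saline alone, subcutaneously, 2 times daily between gestational days 8 and 19. The dams of both groups were pair-fed, and surrogate dams raised the litters of both from birth. The tissue was the hippocampal pyramidal layer of male offspring on postnatal day 3, cut out by laser from frozen sections of a brain hemisphere. The comparison asked how cocaine given to the mother relates to transcript levels in that layer of the offspring.

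Microtubules are hollow polymers of α- and β-tubulin heterodimers, nucleated from rings that contain γ-tubulin. In young neurons they carry transport into axons and dendrites and move the nucleus during migration, and newborn neurons therefore make much tubulin. Folding cofactors assemble the heterodimer, stathmins hold it in soluble form, and structural microtubule-associated proteins such as tau and MAP2 bind along the finished lattice.

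The deposited values were log2 ratios, and every value below is a log2 ratio relative to the median feature of its array, so that 0 is the array median and 1 is a ratio 2 times as large. No source used here states which channel was divided by which, and cocaine over saline is likely from the order of the channels. If it ran the other way, each "higher" below would read "lower". The dyes were never swapped, so dye and treatment cannot be told apart. The labels do not say that the arrays hold separate litters, and p-values measure only the spread between arrays. In tissue pieces of this kind, fewer cells with a transcript and less RNA per cell cannot be told apart. The table holds ratios and no levels, so the labelled tissue could not be checked by how abundant its markers were.

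Of the 45 genes, 19 were higher in the cocaine channel than the array median at a limma Benjamini-Hochberg adjusted p of 0.05, against 5.89% of all genes and features tested, and 26 did not pass. None of the 45 was lower, against 1.16% of all features. These calls are relative to the array median. With ribosomal protein genes as the level, 0 were higher and 5 lower, against 42 and 19043 of all 28035 genes and features. With Actb as the level, 0 were higher and 21 lower, against 10 and 24330 of all. Without centring, 0 were higher and 2 lower, against 63 and 8111 of all. The median of the 45 mean log2 ratios was 1.31, against -0.14 over all genes, and the means ran from -0.998 (Tubb6) to 2.83 (Tubb5). The 19 genes were 9 α- and β-tubulins, γ-tubulin, the folding cofactor Tbcb, 3 stathmins, tau, Map1s, the light chain gene Map1lc3a and 2 genes of the collapsin response mediator family. Of the 38 genes with a value on every array, 23 were above the array median on all 5, against 23% of 11731 genes with 5 values. Without array 1 the number past the threshold was 0, without array 2 it was also 0, and without array 3, 4 or 5 it was 17, 15 and 18. Over all genes and features, 64 of 23291 passed this threshold without array 1 and 76 of 23616 without array 2. Without array 3, 4 or 5 it was 1450 of 24177, 1412 of 24964 and 1950 of 26826. The calls were thus lost over the whole table without array 1 or 2. At an unadjusted limma p of 0.05, 29 genes passed with all arrays, all of them higher. Over all genes and features 6666 of 28035 passed, in either direction. Without array 1, 24 of the 45 passed, against 5010 of 23291 over all genes. Without array 2, 25 passed, against 5037 of 23616. The median of the 45 genes was 1.40 without array 1 and 1.27 without array 2. When the signs of the arrays were permuted in an exact two-sided test of each gene, all 19 reached the smallest p the test can give, which with 4 arrays is 0.125 and with 5 arrays also stays above 0.05.

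Arrays 1 and 2 gave larger log2 ratios for these genes than the other arrays. In 16 of the 19 genes past the threshold, both of these arrays lay above arrays 3, 4 and 5, and in 8 of the 26 genes that did not pass. The 19 were called on means to which arrays 1 and 2 contributed, so their count is a description. It was not made over all genes. The array medians over the measured members were 1.73, 1.72, 1.47, 1.16 and 1.25 on arrays 1 to 5. The pattern was not particular to these genes. Ribosomal protein genes had medians of 2.21, 3.47, 1.22, 1.05 and 1.67, and Actb had 3.39 and 4.45 on arrays 1 and 2 against 1.69 to 1.925 on the others. Gapdh went the other way, at -2.94 and -1.48 on arrays 1 and 2 against -0.63 and 0.74 on arrays 3 and 5. Arrays 3 to 5 consist mostly of log2 ratios of whole numbers up to 30 (85.8%, 86.7% and 86.2% of all values), against 34.0% and 38.2% on arrays 1 and 2. Among the probe values of the 19 genes that passed, 18 of 137 were such small ratios (13.1%), against 147 of 255 (57.6%) for the 26 genes that did not. With all small ratios left out, 33 of the 45 genes could be tested and 0 passed at an adjusted p of 0.05, against 51 of 5222 over all genes. At an unadjusted limma p of 0.05, 13 of the 33 passed, against 881 of 5222 over all genes. The median of the 33 was 1.20, against 0.65 over all genes in this setting. As reported, with small ratios kept, the medians were 1.31 over 45 members and -0.14 over 28035 genes and features. The settings hold different genes and centre each array on a different median, so these distances are not a like comparison.

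**Figure D1:**
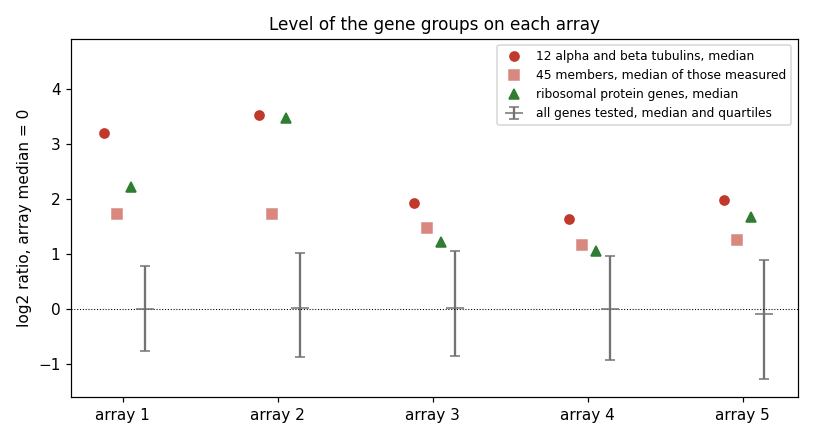
Median log2 ratio on each of the 5 arrays (y axis, array median at 0) of the 12 α- and β-tubulins, of all measured members, of the cytosolic ribosomal protein genes, and of all genes tested with their quartiles. The tubulin medians (3.20, 3.51, 1.92, 1.63 and 1.97) lie above the upper quartile of all genes on every array, and above the ribosomal median on each.

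Of the 5 α-tubulin genes measured, 3 rose relative to the array median, although the means of Tuba1a and Tuba4a turned below 0 with Actb as the level. Tuba1a, the main α-tubulin of migrating and growing neurons, had log2 ratios of 3.12, 4.08, 2.02, 1.51 and 1.99 on arrays 1 to 5, a mean of 2.55 ± 1.04 (SD, n = 5) with an adjusted p of 0.0127. Tuba1b, which is made in most cell types, had 3.27, 4.78, 1.97, 2.14 and 1.97 and a mean of 2.83 ± 1.22 (SD, n = 5), adjusted p = 0.0122. Tuba4a, whose product lacks the final tyrosine that most other α-tubulins are made with, had 3.77, 3.18, 1.87, 1.64 and 2.47 and a mean of 2.59 ± 0.89 (SD, n = 5), adjusted p = 0.0122. All 15 of these values were above 1, and in each gene the values of arrays 1 and 2 were the highest. The other α-tubulins did not pass. Tuba1c had 0.19, 0.43, 3.21, 0.86 and -1.26, a mean of 0.68 ± 1.62 (SD, n = 5) and a 95% interval of -0.51 to 1.88, so that array 3 was high and array 5 was below the array median. Tuba8 had 2.04, 0.98, 2.16, 1.56 and -0.36, a mean of 1.28 ± 1.03 (SD, n = 5) and an adjusted p of 0.12, with array 5 the only one below 0.

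Tuba1a, Tuba1b and Tuba1c lie side by side on mouse chromosome 15, and their coding regions are close to identical. The mean difference of Tuba1a minus Tuba1b was -0.28 ± 0.36 (SD, n = 5), with Tuba1a the higher on 2 arrays, and that of Tuba1a minus Tuba1c was 1.86 ± 2.07, with Tuba1a the higher on 4. These pairs were chosen with the values known and are given as a description. The probe sequences were not used here, so how far a probe of one isotype also binds transcripts of another was not tested. The 250 bases before the start of each of these genes, and of the neuronal β-tubulin Tubb3, are shown because Tuba1a and Tuba1b passed and their neighbour Tuba1c did not, a difference in ratio that was not itself tested (RefSeq, GRCm38.p6, on the strand of the gene). Capitals mark GC boxes, GGGCGG or CCGCCC on the other strand.
Tuba1a, chr15:98953502-98953751, minus strand: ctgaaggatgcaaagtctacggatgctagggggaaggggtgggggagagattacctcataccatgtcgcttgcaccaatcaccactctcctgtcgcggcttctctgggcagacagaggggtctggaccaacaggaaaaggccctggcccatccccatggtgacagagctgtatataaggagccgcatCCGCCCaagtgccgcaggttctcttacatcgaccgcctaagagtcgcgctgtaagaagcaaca
Tuba1b, chr15:98934391-98934640, minus strand: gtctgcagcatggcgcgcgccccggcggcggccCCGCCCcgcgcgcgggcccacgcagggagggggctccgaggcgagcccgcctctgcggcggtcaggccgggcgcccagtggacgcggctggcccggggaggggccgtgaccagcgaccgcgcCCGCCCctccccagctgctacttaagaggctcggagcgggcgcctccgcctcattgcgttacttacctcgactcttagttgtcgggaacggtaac
Tuba1c, chr15:99029641-99029890, plus strand: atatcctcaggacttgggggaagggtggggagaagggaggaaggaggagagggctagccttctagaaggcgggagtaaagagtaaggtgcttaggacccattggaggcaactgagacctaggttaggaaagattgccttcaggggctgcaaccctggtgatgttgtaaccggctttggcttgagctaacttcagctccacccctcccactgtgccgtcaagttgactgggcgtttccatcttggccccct
Tubb3, chr8:123411303-123411552, plus strand: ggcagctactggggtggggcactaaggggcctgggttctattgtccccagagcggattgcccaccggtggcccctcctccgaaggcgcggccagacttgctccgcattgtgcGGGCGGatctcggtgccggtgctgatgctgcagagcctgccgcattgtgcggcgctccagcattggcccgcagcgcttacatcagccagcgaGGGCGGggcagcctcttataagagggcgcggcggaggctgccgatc
The window of Tuba1b held 35 CpG and 2 GC boxes, that of Tubb3 21 CpG and 2 boxes, that of Tuba1a 11 CpG and 1 box, and that of Tuba1c 4 CpG and no box. None of the 4 windows held TATAAA on either strand.

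Promoter windows were found for 32 of the 45 genes. They held a median of 16 CpG, against 6 over all 27025 windows with 1 window per gene. A GC box on either strand stood in 21 of the 32 (65.6%), against 32.9% of all windows, and TATAAA in 5 (15.6%), against 12.97%. The E-box CAGATG or its reverse complement CATCTG stood in 3 (9.38%), against 14.5%. Among the 13 windows of genes that passed, 9 held a GC box (69.2%), and among the 19 windows of genes that did not pass, 12 did (63.2%). A match of letters describes the window only.

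Of the 7 β-tubulin genes measured, 6 rose relative to the array median, the exception being Tubb6, and of the 6 the means of Tubb2b, Tubb3 and Tubb4b turned below 0 with Actb as the level. Tubb5, the β-tubulin found in most tissues and in neural progenitors, had 3.71, 4.82, 1.88, 1.77 and 1.97, the highest mean of all 45 genes at 2.83 ± 1.37 (SD, n = 5), adjusted p = 0.0126. Tubb4a, a β-tubulin enriched in brain, had 3.63, 4.41, 2.04, 1.88 and 2.07 and a mean of 2.81 ± 1.14 (SD, n = 5), adjusted p = 0.012. Tubb2a had 3.57, 4.13, 2.20, 1.62 and 1.78 and a mean of 2.66 ± 1.13 (SD, n = 5), adjusted p = 0.0126. Tubb2a and its neighbour on chromosome 13, Tubb2b, are the main β-tubulins of developing brain. Tubb2b had 2.89, 3.85, 1.65, 1.25 and 2.37 and a mean of 2.40 ± 1.03 (SD, n = 5), adjusted p = 0.0133. Tubb3, the class III isotype used as a marker of neurons, had 3.31, 2.91, 1.85, 1.77 and 2.19 and a mean of 2.41 ± 0.67 (SD, n = 5), adjusted p = 0.0126, the smallest SD among the β-tubulins. Tubb4b, which is widely expressed, was measured on 4 arrays with 2.56, 3.18, 1.01 and 1.81 and a mean of 2.14 ± 0.94 (SD, n = 4), adjusted p = 0.0274. On array 5 its value was an exact 0, which was treated as not measured. Tubb6, an isotype that is scarce in brain, had -0.48, 0.16, -2.63, -0.46 and -1.58 and a mean of -0.998 ± 1.11 (SD, n = 5), with a 95% interval of -2.04 to 0.040 and an adjusted p of 0.228. It was the lowest of all 45 genes. Its 2 probes had means of 0.57 and -1.50, and on array 2 they stood at 2.67 and -2.36.

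The 9 tubulin genes that passed stayed close together on each array. They ran from 2.56 to 3.77 on array 1, from 2.91 to 4.82 on array 2, from 1.01 to 2.20 on array 3, from 1.25 to 2.14 on array 4 and from 1.78 to 2.47 on array 5. Their SD among themselves was 0.41, 0.71, 0.34, 0.25 and 0.23 on these arrays, against 1.30 to 1.57 among all genes. As these genes were picked by their means and share much of their sequence, the narrow range is a description and was not tested.

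**Figure D2:**
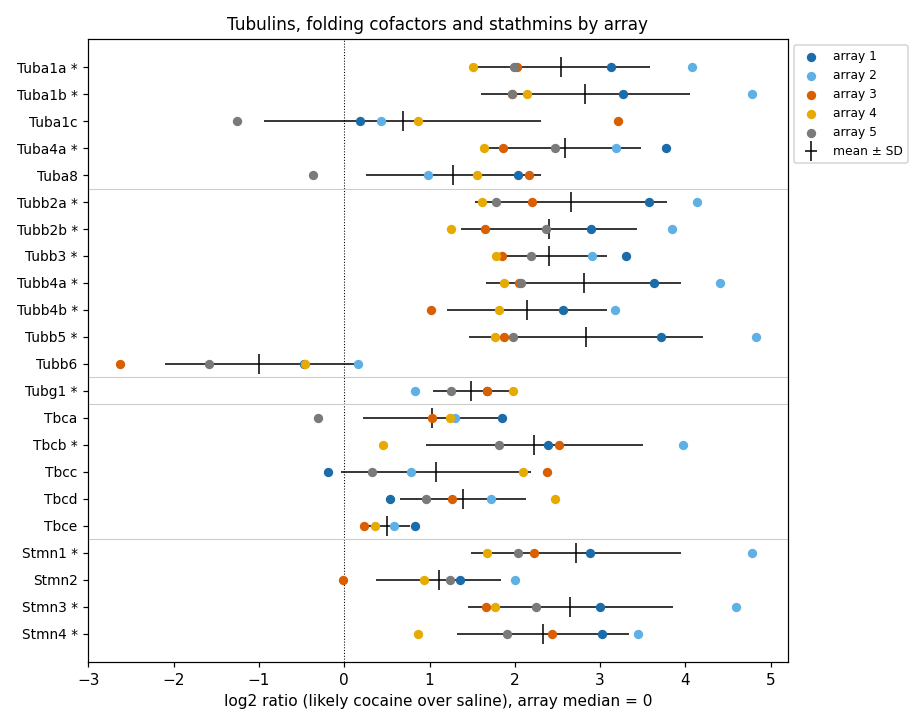
Log2 ratio (x axis, likely cocaine over saline, array median at 0) of each tubulin, folding cofactor and stathmin on arrays 1 to 5 (points), with the mean ± SD over arrays, and a star on genes past an adjusted p of 0.05. The starred tubulins lie between 0.83 and 4.82 on every measured array, while Tubb6 lies between -2.63 and 0.16. With Actb as the level, several starred genes, Tuba1a and Tubb3 among them, have means below 0.

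Tubg1, which encodes the γ-tubulin that nucleates microtubules, had 1.68, 0.83, 1.68, 1.97 and 1.25 and a mean of 1.48 ± 0.45 (SD, n = 5), with an adjusted p of 0.0486, near the threshold, and its mean turned below 0 with ribosomal protein genes or Actb as the level. The call was lost whichever array was left out (limma adjusted p from 0.0619 to 0.125) and held in 4 of 22 processings, and when features were tested singly its only probe had an adjusted p of 0.0619. Tubg1 was highest on array 4 and lowest on array 2. Of the 5 folding cofactors, 1 rose, and not with Actb as the level. Tbcb, which binds free α-tubulin, had 2.38, 3.97, 2.52, 0.46 and 1.82 and a mean of 2.23 ± 1.27 (SD, n = 5), adjusted p = 0.0193, with array 4 well below the others. Tbcd, which binds β-tubulin, had 0.54, 1.72, 1.26, 2.47 and 0.96 and a mean of 1.39 ± 0.74 (SD, n = 5), adjusted p = 0.0751. Tbca, a carrier of β-tubulin, and Tbcc, which completes the release of the heterodimer, had means of 1.02 ± 0.80 (SD, n = 5) and 1.08 ± 1.12 (SD, n = 5). Tbce, which acts on α-tubulin, was the lowest cofactor at 0.50 ± 0.26 (SD, n = 4), with its 4 measured values between 0.23 and 0.83. The cofactors as a group had a median of 1.08, against 2.55 for the α- and 2.41 for the β-tubulins.

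Of the 4 stathmins, small proteins that bind tubulin heterodimers and favour the loss of subunits from microtubule ends, 3 rose relative to the array median, while Stmn3 and Stmn4 turned below 0 with Actb as the level. Stmn1, the founding member, abundant in immature neurons, had 2.88, 4.78, 2.23, 1.68 and 2.04 and a mean of 2.72 ± 1.23 (SD, n = 5), adjusted p = 0.0126. Stmn3 had 2.99, 4.59, 1.66, 1.76 and 2.25 and a mean of 2.65 ± 1.20 (SD, n = 5), adjusted p = 0.0127. Stmn4 had 3.02, 3.44, 2.44, 0.86 and 1.91 and a mean of 2.33 ± 1.01 (SD, n = 5), adjusted p = 0.0138. Array 2 gave the highest value in all 4 stathmins. Stmn2, a growth cone protein of neurons also called SCG10, did not pass. Its values were 1.36, 2.00, -0.017, 0.94 and 1.24, with a mean of 1.10 ± 0.74 (SD, n = 5) and an adjusted p of 0.149, and its probes disagreed as described below.

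Of the 8 genes of proteins that bind along the microtubule lattice, 2 rose relative to the array median, and both turned below 0 with Actb as the level. Mapt, which encodes the axonal protein tau, had 3.55, 4.01, 1.19, 1.21 and 1.20 and a mean of 2.23 ± 1.42 (SD, n = 5), adjusted p = 0.0223. Arrays 1 and 2 were high, and the values of arrays 3 to 5 stood between 1.19 and 1.21. Map1s, a small relative of MAP1A and MAP1B, had 2.55, 3.25, 1.06 and 1.63 on arrays 1 to 4 and a mean of 2.12 ± 0.97 (SD, n = 4), adjusted p = 0.0294, and a 0 on array 5 that was treated as not measured. The other lattice proteins lay nearer to the array median. Map2, the dendritic protein, had 1.73, 0.054, -0.46, 0.80 and 0.69 and a mean of 0.56 ± 0.83 (SD, n = 5), adjusted p = 0.478. Its values on arrays 2 and 3 include a probe measured on those arrays only, at -3.06 and -3.09, and without it, a choice made after the values were seen, Map2 averaged 1.14 and lay between 0.69 and 1.73 on the 5 arrays. Map6, the protein that protects microtubules from cold and whose promoter the study chose for its methylation work, had 1.49, 0.35, 0.92, -0.14 and 0.14 and a mean of 0.55 ± 0.65 (SD, n = 5), adjusted p = 0.469, with a 95% interval of -0.38 to 1.49. The study also measured its mRNA by real-time RT-PCR in this layer at P3, relative to GAPDH or β-actin, and reported a significant increase with cocaine. The array value stands against another level. With Gapdh at 0 Map6 averaged 1.80 (n = 4), against a median of 1.23 for all genes, and did not pass. With Actb at 0 Map6 averaged -2.11 (n = 5), lower at a limma adjusted p of 0.00706. Against Actb, however, 24330 of 28035 genes and features were lower. The typical gene stood at -2.90 (median), further below Actb than Map6 did. The Actb call was thus shared by most genes and was no test of the RT-PCR result. Relative to the array median, Map6 lay below Tuba1a on 5 of 5 arrays, by 1.99 ± 1.01 on average (SD, n = 5). This pair was chosen with the values known and is given as a description. Map7, which brings kinesin-1 to microtubules, was the lowest of the group at -0.52 ± 0.37 (SD, n = 4), with 4 of 4 measured values below the array median. Map1a and Map1b, whose products are the large MAP1 proteins of mature and growing neurites, had means of 0.77 ± 0.92 (SD, n = 5) and 0.30 ± 0.64 (SD, n = 5), and Map4, whose product is found in many tissues, had 0.92 ± 0.66 (SD, n = 5). None of these 3 passed.

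The light chain genes Map1lc3a and Map1lc3b encode proteins first found with MAP1 and now known mainly from autophagy. Map1lc3a had 3.12, 3.90, 1.53, 2.01 and 1.47 and a mean of 2.41 ± 1.07 (SD, n = 5), adjusted p = 0.0135, and turned below 0 with Actb as the level. Map1lc3b had 1.70, 1.42, 1.22, 1.74 and 1.01, all above 1, with a mean of 1.42 ± 0.31 (SD, n = 5). At an adjusted p of 0.0543 it was the member closest to the threshold among those that did not pass.

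The collapsin response mediator proteins bind tubulin heterodimers and act in axon growth, and 2 of their 5 genes rose relative to the array median, while both turned below 0 with Actb as the level and Dpysl5 also with ribosomal protein genes. Crmp1 had 2.73, 4.003, 0.66, 1.61 and 2.21 and a mean of 2.24 ± 1.25 (SD, n = 5), adjusted p = 0.0184, with arrays 1 and 2 high and array 3 low. Dpysl5 had 1.41, 1.91, 1.47, 1.16 and 1.55 and a mean of 1.50 ± 0.27 (SD, n = 5), adjusted p = 0.0424. This call was lost whichever array was left out (limma adjusted p from 0.0644 to 0.105) and held in 7 of 22 processings, and 1 of the 2 probes passed, at 2.34, while the other was at 0.44. Dpysl2, Dpysl3 and Dpysl4 were measured on 4 arrays each, had means of 1.15 ± 0.84 (SD, n = 4), 1.15 ± 1.05 (SD, n = 4) and 0.99 ± 1.00 (SD, n = 4), and did not pass.

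No gene of the doublecortin, end-binding or Lis1 groups passed. Dcx, the marker of migrating neurons, had 0.40, -0.19, 0.68, 0.92 and 2.06 and a mean of 0.77 ± 0.83 (SD, n = 5), adjusted p = 0.32, with its highest value on array 5 and its lowest on array 2. Its relatives Dclk1 and Dclk2 had means of -0.19 ± 0.46 (SD, n = 5) and 0.86 ± 1.01 (SD, n = 5). The end-binding genes Mapre1, Mapre2 and Mapre3, whose products track growing plus ends, had means of 1.31 ± 0.57 (SD, n = 5), 1.54 ± 1.31 (SD, n = 5) and 0.88 ± 1.12 (SD, n = 5). Mapre1 and Mapre2 were above the array median on 5 of 5 arrays, with adjusted p-values of 0.0827 and 0.0845. Pafah1b1, which encodes the dynein regulator Lis1, averaged 0.14 ± 0.73 (SD, n = 5), and its partner Ndel1 averaged 0.97 ± 0.57 (SD, n = 5) with 5 of 5 arrays above the median. Of the 26 members that did not pass, 8 were above the array median on every array that measured them and 10 had an unadjusted p under 0.05, so a result short of the threshold does not show that they were at the median.

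**Figure D3:**
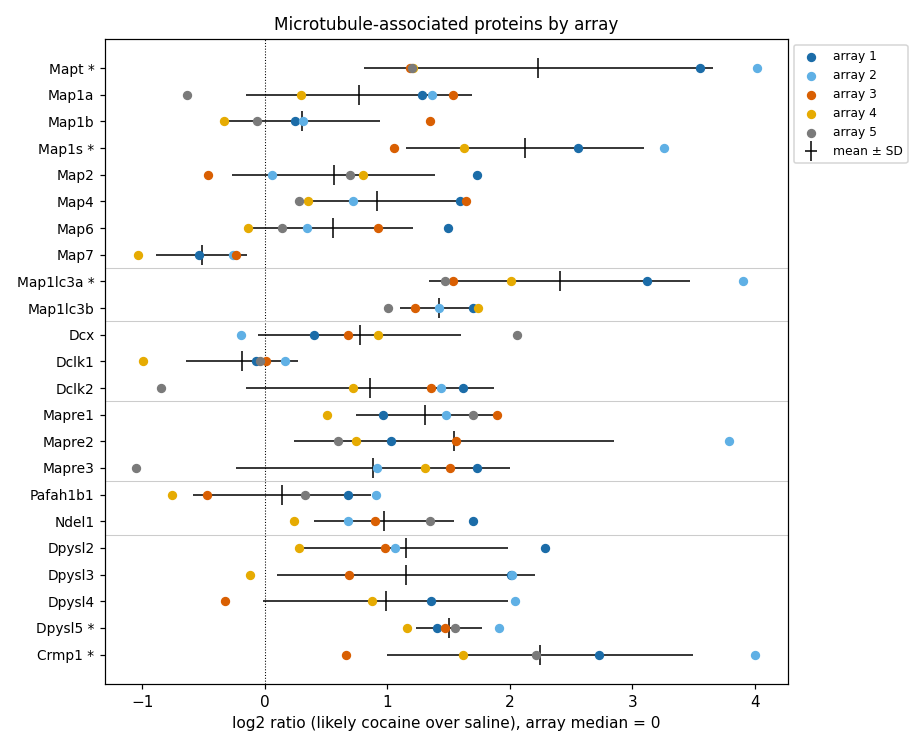
Log2 ratio (x axis, likely cocaine over saline, array median at 0) of the microtubule-associated, light chain, doublecortin, end-binding, Lis1 and collapsin response mediator genes on arrays 1 to 5 (points), with the mean ± SD over arrays, and a star on genes past an adjusted p of 0.05. The 5 starred genes lie between 0.66 and 4.01, and Map7 lies below 0 on all 4 arrays that measured it. With Actb as the level the means of the starred genes turn below 0.

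Single probes were then examined, since the probes of 1 gene were averaged. Of 83 probes with a value on at least 3 arrays, 33 were higher at an adjusted p of 0.05, against 6.36% of all 38953 features tested singly, and 1 was lower, against 1.32%. At least 1 probe was higher in 26 of the 45 genes. Such a count rises with the number of probes per gene, and 23 of the 45 had several. It was not made over all genes, so it cannot be compared with the 6.36% of single features. Of the 22 genes with at least 2 tested probes, Tubb5 and Stmn1 had the closest probe means. The 2 probes of Tubb5 had means within 0.13 of each other, those of Stmn1 within 0.27, the 3 of Tubb2a within 0.37 and the 3 of Tuba4a within 0.54, and all of these probes passed.

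In 8 of the 22 genes the probe means had opposite signs, and in 8 genes that did not pass as a whole at least 1 probe did. Neither count was made over all genes with several probes, so whether these genes differ from others in this cannot be told. Pafah1b1 had a probe at 2.07 ± 1.06 that was higher on 5 of 5 arrays (adjusted p = 0.0204) and another at -1.79 ± 0.59 that was lower on 5 of 5 (adjusted p = 0.0287; SD, n = 5). Dcx had a probe at 2.10 ± 0.60 that passed (n = 5), one at 0.076 ± 0.99 (n = 4) and one at -1.42 ± 1.40 (n = 3). Stmn2 had a probe at 2.54 ± 1.45 that passed (n = 5) and one at -0.73 ± 1.11 (n = 4). Map1a had 4 probes between -0.97 and 2.53, of which the highest passed. For these genes the mean over probes stands between values that differ by more than 3 log2 units, and which probe measures the transcript was not tested. Map2 had a probe at 1.99 ± 1.20 that passed and one at 0.29 ± 0.65 (n = 5 each), besides the probe that had values on only 2 arrays. All 3 probes of Map6 lay between 0.31 and 0.98 and none passed.

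**Figure D4:**
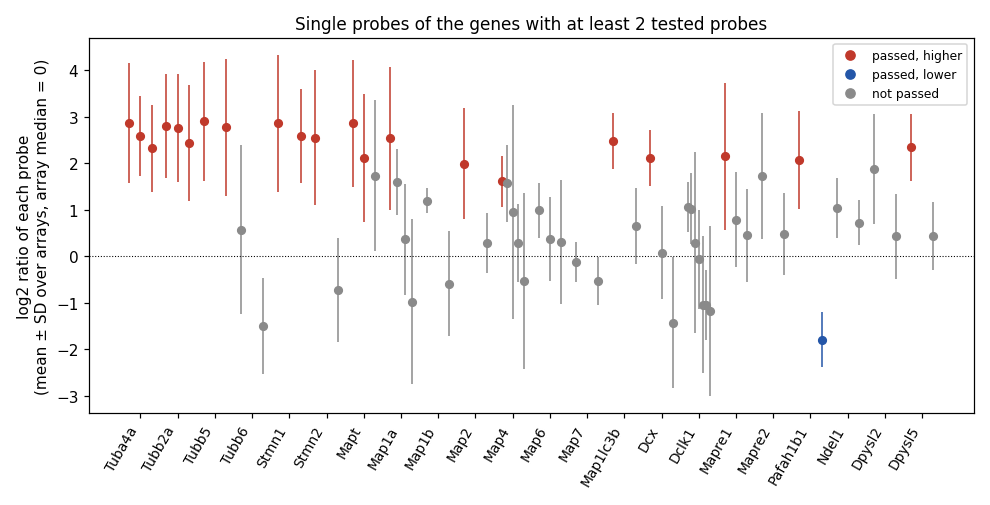
Mean ± SD over arrays of the log2 ratio (y axis, array median at 0) of every tested probe of the 22 genes with at least 2 tested probes (x axis), coloured by whether the probe passed an adjusted p of 0.05. The probes of Tuba4a, Tubb2a, Tubb5 and Stmn1 lie together between 2.32 and 2.90, and those of Pafah1b1 lie at 2.07 and -1.79.

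The place of the microtubule genes depended on the level chosen as 0. Actb, the β-actin gene often used as a reference, itself lay at 2.66 ± 1.21 (SD, n = 5; adjusted p = 0.0127), and Gapdh lay at -1.08 ± 1.54 (SD, n = 4; adjusted p = 0.295). The 74 cytosolic ribosomal protein genes tested had a median of 1.96, and 50 of them were higher. On arrays 1 to 5 the ribosomal medians were 2.21, 3.47, 1.22, 1.05 and 1.67, and 17, 12, 15 and 17 of the 19 genes past the threshold lay above them on arrays 1 to 4, and 13 of 17 on array 5. With the ribosomal protein genes as the reference the median of the 45 genes was -0.61, against -2.10 for all genes, none was higher and 5 were lower (Tubb6, Map7, Dclk1, Pafah1b1 and Map1b). With Actb at 0 the median was -1.35, against -2.90 for all genes, and 21 were lower. With Gapdh at 0, which left out the array where Gapdh had no value, it was 2.58, against 1.23 for all genes, and 19 were higher, 17 of them among the 19 named above. With the values as deposited, without centring, it was 0.090, against -1.52 for all genes, and 2 were lower, Tubb6 and Map7. Over all 28035 genes and features, 19043 were lower with ribosomal protein genes as the level, 24330 with Actb at 0 and 8111 without centring. With Gapdh at 0, 1940 of 24964 were higher. A change of level subtracts the same amount from every gene on an array, so the distance between these genes and all other genes on that array is not a test of either.

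**Figure D5:**
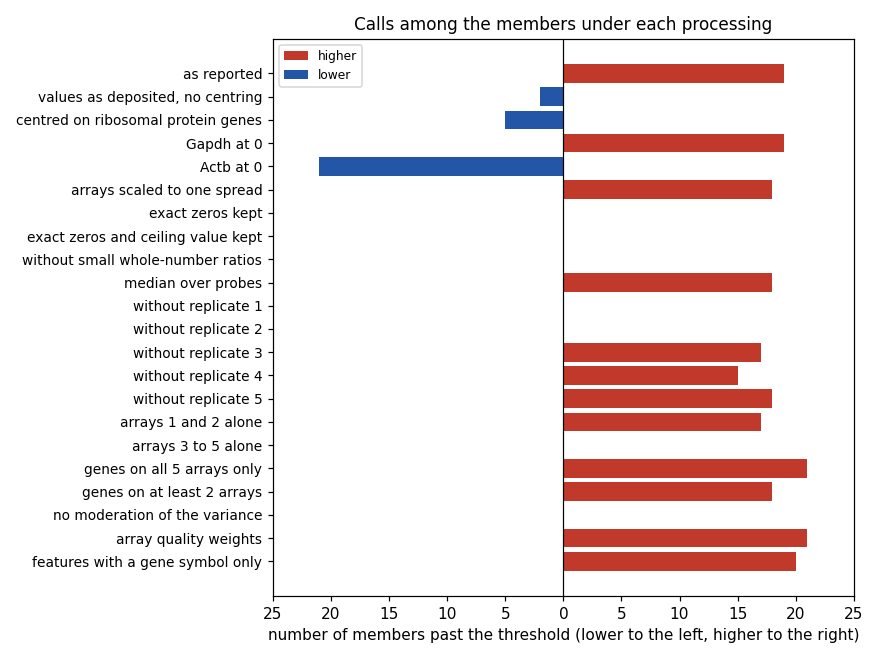
Number of the 45 genes past an adjusted p of 0.05 (x axis, lower to the left and higher to the right of 0) as reported and under each alternative processing (y axis). As reported, 19 were higher and 0 lower. The count was 0 without array 1 or array 2, with arrays 3 to 5 alone, with exact zeros kept, without small whole-number ratios and without moderation of the variance. Over all genes these settings passed 64, 76, 0, 62, 51 and 1, against 1976 as reported.

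A wider list held 82 other microtubule genes, of which 73 were tested. At an unadjusted limma p of 0.05, 14 of these were higher and 2 lower, against 6666 of 28035 over all genes in either direction. By the limma adjusted p, 6 of the 73 were higher and 0 lower, and the median of the 73 was 0.26. Their share past the threshold was 8.22%, close to the 5.89% of all features, and with Actb as the level the means of all 6 but Tuba3a turned below 0. Without centring, 0 of the 73 were higher and 9 lower, against 63 higher and 8111 lower of all 28035 genes and features. Tuba3a, another α-tubulin, had 3.79, 4.06, 1.98, 2.08 and 1.76 and a mean of 2.74 ± 1.10 (SD, n = 5), adjusted p = 0.0122. Cdk5r1, which encodes the activator p35 of the kinase Cdk5, had 2.30, 5.32, 2.06, 1.17 and 2.26 and a mean of 2.62 ± 1.58 (SD, n = 5), adjusted p = 0.0148, with array 2 far above the rest. Gsk3a, a kinase that phosphorylates tau, had 2.31, 2.76, 1.91 and 1.72 on arrays 1 to 4 and a mean of 2.17 ± 0.46 (SD, n = 4), adjusted p = 0.0196. Both belonged to a set of 9 genes of kinases and their activators in which the others did not pass. Sirt2, a deacetylase of α-tubulin, had 1.72, 1.94, 1.99, 1.33 and 3.45 and a mean of 2.09 ± 0.80 (SD, n = 5), adjusted p = 0.0161, and was highest on array 5. Clip3, a relative of the plus-end proteins, averaged 2.00 ± 0.92 (SD, n = 5) (adjusted p = 0.0203) and Map7d1, a relative of Map7, averaged 2.28 ± 1.16 (SD, n = 5) (adjusted p = 0.0159). No gene of the γ-tubulin ring complex (8 tested, means from -0.16 to 0.50), of the severing enzymes (5 tested) or of the minus-end proteins (2 tested) passed.

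Cell type markers were set beside these values. Of 65 markers, 60 were tested, with a median of 0.40. Of the 60, 3 were higher, against 5.89% of all genes and features, and 1 was lower, against 1.16%. The 7 general neuron markers lay between 0.52 and 1.52 with a median of 1.03, and none passed. The 11 pyramidal neuron markers tested lay between -1.31 and 1.87 with a median of 0.045, and 1 passed, the glutamate transporter gene Slc17a6 at 1.87. Interneuron, astrocyte, oligodendrocyte, microglia and vascular markers had medians of 1.07, 0.95, -0.028, 0.015 and -0.59, with none past the threshold. Among red cell markers the 2 α-globin genes were higher at 3.26 each, and Slc4a1 was lower at -2.04. The part of any of these cell types in the microtubule values was not tested.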

How the data were processed

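RNA of laser-cut P3 pyramidal layer was hybridized to 5 two-colour arrays. For each array the authors deposited log2 ratios of the paired channels at 44290 features. Scanning, background correction and normalization of these expression arrays were not given in the sources used here. Deposited values were taken as log2 because log2 ratios of small whole numbers recur. Exact zeros and the ceiling value of 16.61 were treated as not measured, which left 19745 to 39470 features per array. Each array was centred on its median, since medians ran from -2.68 to 0.26. The arrays correlated in rank with each other at 0.29 to 0.44. Features with 1 gene symbol (32042) were averaged by symbol, and the others were tested singly. Genes with values on at least 3 arrays were tested against 0 with limma 3.58.1 in R 4.3.3 (intercept-only fit, empirical Bayes), and p-values were adjusted over the whole table. The fit was tested on simulated data.

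The members, the list of other microtubule genes, the markers and the alternatives were chosen with earlier results of these data known. Named genes were every member past the threshold, the highest and lowest member of each larger role group, all members of smaller groups, Map6, Tubb3, Tuba1a, Dcx, Mapt, Map2 and Stmn1 whatever their value, and up to 4 genes past the threshold in each group of the wider list. Genes named for their probes, and the remaining members given with a mean, were added with their values seen. Alternatives covered the level, scaling, zeros, small ratios, probes, each array left out and the variance model.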

Additional observations from a re-analysis of the deposited data

Results flagged for a closer look

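Among 51 named genes examined for an array far from the others, 2 stood out, and chance alone marks about 1 in 20 such sets of arrays. Cdk5r1, which encodes p35, had a log2 ratio of 5.32 on array 2, against 1.17 to 2.30 on the other 4 arrays. Dclk1, a doublecortin-like kinase gene read by 7 probes, was at -0.99 on array 4, against -0.07 to 0.16 on the other 4 arrays.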

How the results depend on the processing

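The count of the 45 microtubule genes past the threshold, 19 as reported, stayed between 15 and 21 with arrays scaled to one spread, the median over probes, genes on all 5 or on at least 2 arrays, array weights, features with a symbol only, Gapdh at 0, arrays 1 and 2 alone, and without array 3, 4 or 5. With Actb at 0 it was 21, all lower. With 1 array left out, the members past the threshold ran from 0 to 18, their median from 1.27 to 1.49, the wider list from 0 to 7 and all genes from 64 to 1950. The members past the threshold were 2 without centring, 5 with ribosomal protein genes as the level, and 0 with exact zeros kept, with zeros and the ceiling value kept, without small whole-number ratios, with arrays 3 to 5 alone and without moderation of the variance. At an unadjusted p of 0.05, these last 5 settings passed 23, 22, 13, 22 and 28 members. Over all genes they passed 5138 of 31330, 3740 of 31335, 881 of 5222, 2722 of 12689 and 5295 of 28035. The wider list had 0 past the threshold in the same 5 settings, 41 with ribosomal protein genes as the level, 61 with Actb at 0 and 9 without centring, all lower in these 3 settings. Over all genes the count was 8174 without centring, 19085 with ribosomal protein genes as the level, 24340 with Actb at 0, 62 with zeros kept, 0 with zeros and the ceiling value kept, 51 of 5222 tested without small ratios, 0 with arrays 3 to 5 alone and 1 without moderation. The members' median was 0.090 without centring, -0.61 with ribosomal protein genes as the level, -1.35 with Actb at 0, 2.58 with Gapdh at 0 and 1.66 with arrays 1 and 2 alone. The change of level moved every gene on an array by the same amount, so the signs of genes near it turned. The cause of the other changes was not tested. Fewer genes could be tested without small ratios and with arrays 3 to 5 alone (33 and 38 members).

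Mean log2 ratios that changed sign were as follows. With Actb at 0 they were Cdk5r1 -0.039, Clip3 -0.66, Crmp1 -0.42, Dclk2 -1.80, Dcx -1.89, Dpysl2 -1.71, Dpysl3 -1.72, Dpysl4 -1.88, Dpysl5 -1.16, Gsk3a -0.69, Map1a -1.89, Map1b -2.36, Map1lc3a -0.25, Map1lc3b -1.24, Map1s -0.74, Map2 -2.10, Map4 -1.74, Map6 -2.11, Map7d1 -0.38, Mapre1 -1.35, Mapre2 -1.12, Mapre3 -1.78, Mapt -0.43, Ndel1 -1.69, Pafah1b1 -2.52, Sirt2 -0.57, Stmn2 -1.55, Stmn3 -0.0094, Stmn4 -0.33, Tbca -1.63, Tbcb -0.43, Tbcc -1.58, Tbcd -1.27, Tbce -2.36, Tuba1a -0.11, Tuba1c -1.98, Tuba4a -0.072, Tuba8 -1.38, Tubb2b -0.26, Tubb3 -0.25, Tubb4b -0.72 and Tubg1 -1.18. With ribosomal protein genes as the level they were Dclk2 -1.07, Dcx -1.15, Dpysl2 -0.83, Dpysl3 -0.84, Dpysl4 -0.999, Dpysl5 -0.42, Map1a -1.16, Map1b -1.62, Map1lc3b -0.50, Map2 -1.36, Map4 -1.01, Map6 -1.37, Mapre1 -0.61, Mapre2 -0.38, Mapre3 -1.04, Ndel1 -0.95, Pafah1b1 -1.79, Stmn2 -0.82, Tbca -0.90, Tbcc -0.84, Tbcd -0.53, Tbce -1.48, Tuba1c -1.24, Tuba8 -0.65 and Tubg1 -0.44. Without centring they were Dclk2 -0.36, Dcx -0.45, Dpysl2 -0.44, Dpysl3 -0.44, Dpysl4 -0.60, Map1a -0.45, Map1b -0.92, Map2 -0.66, Map4 -0.30, Map6 -0.67, Mapre3 -0.34, Ndel1 -0.25, Pafah1b1 -1.08, Stmn2 -0.11, Tbca -0.19, Tbcc -0.14, Tbce -1.08 and Tuba1c -0.53. With Gapdh at 0, Dclk1 was 1.09 and Map7 1.34. Dclk1 was 0.046 with arrays 1 and 2 alone and ran from -0.27 to 0.016 with 1 array left out, above 0 only without array 4. Pafah1b1 ran from -0.056 (without array 2) to 0.36 (without array 4) with 1 array left out, and was -0.085 with zeros kept, -0.093 with zeros and the ceiling value kept and -0.30 with arrays 3 to 5 alone. Map7 was 0.67 with zeros and the ceiling value kept, and Dcx was -0.49 without small ratios. Each array holds both groups, so the test of the log2 ratios against 0 is already a paired one, and there is 1 group of arrays. The number of arrays limits the precision, and signal over background is not known from ratios.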
